A study of Mus musculus with 167 samples.

Results

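Among single lymphoid-primed multipotent progenitors (LMPPs) of mouse bone marrow, some carry RNA of the stem cell transcription factor genes Hlf and Mecom. Cells were selected on the TPM values of these 2 genes (TPM is a transcript level per length, scaled to the same total in every cell). Those with both at 1 or more were compared with those in which both were under 1. Columns with at least 1000 genes at TPM 1 or more were kept, which left 130 of 168. Of these 130 cells, 42 had both genes, 49 had neither, 32 had only Hlf and 7 had only Mecom.

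The cells came from wild-type female C57Bl/6J mice of 4 and 14 months with no treatment. After removal of mature lineage cells, marrow cells with Sca-1, c-Kit, CD34 and high Flt3 but without CD150 were sorted and captured singly on a Fluidigm C1 chip, per the labels' protocols. Cells are not replicates and the labels give no animals. With 1 sample per age, no p-value is given. Standard deviations (SD) and intervals describe the cells of these samples only. The 14-month columns carry a set number, 4 or 5, which the labels do not explain, and the 4-month columns carry none. Age cannot be told apart from capture.

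LMPPs lie early in blood formation, have high Flt3, and can form lymphoid and granulocyte-monocyte cells with little megakaryocyte or erythroid output. Hlf encodes a PAR bZIP factor and Mecom encodes the zinc finger factor Evi1. Both are typical of hematopoietic stem cells, support their maintenance, and decline as progenitors commit to a lineage.

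The class with both genes made up 46.9% of the 4-month cells (30 of 64, exact 95% interval 34.3 to 59.8%) and 18.2% of the 14-month cells (12 of 66, interval 9.76 to 29.6%). It held 3 of 29 cells of set 4 (10.3%) and 9 of 37 of set 5 (24.3%). The class with neither gene held 15 cells at 4 months and 34 at 14 months. If the 2 genes were detected independently within an age, the class would hold 37.4% of the 4-month cells and 9.99% of the 14-month cells. In set 4 the observed 10.3% lay close to the 9.27% of independent detection, and in set 5 the observed 24.3% stood against 10.5%. With a threshold of 10 TPM for both genes the class held 17.2% of the 4-month and 10.6% of the 14-month cells. These shares count cells in which the RNA was detected, and they changed with the threshold. How far they depend on the number of genes detected in a cell was not tested.

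Within the class, the values that chose its cells varied widely. Hlf ranged from 1.01 TPM through a median of 34.4 to 459 TPM at 4 months, and from 5.56 through 37.0 to 175 TPM at 14 months. Mecom ranged from 1.37 TPM through a median of 5.17 to 624 TPM at 4 months, and from 2.74 through 35.2 to 303 TPM at 14 months. Around the threshold, the highest value counted as undetected was 0.32 TPM for Hlf and 0.96 TPM for Mecom, and the lowest counted as detected was 1.01 TPM for each. Only 3 cells had Hlf, and 6 had Mecom, above 0 and under 1. The 38 columns left out held no cell with both genes.

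**Figure D1:**
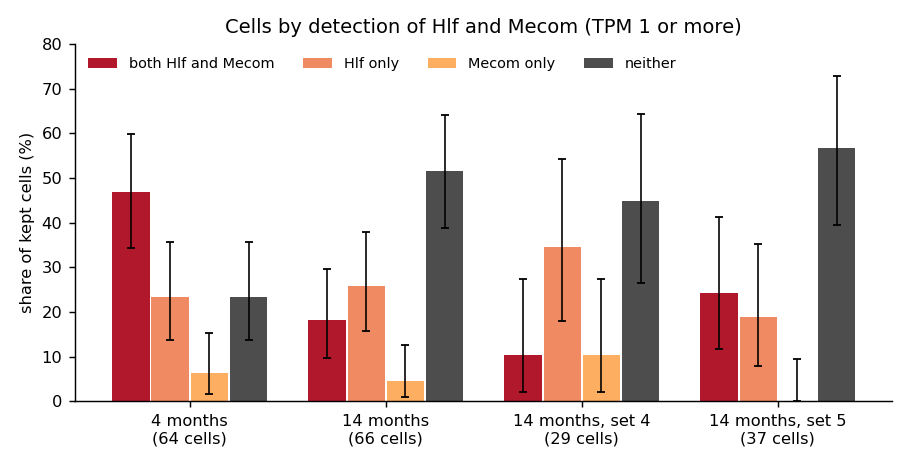
Share of kept cells in each class (y axis, percent) at 4 months, at 14 months and in the 14-month sets 4 and 5 (x axis), with bars for the 4 classes and exact 95% binomial intervals as error bars. Cells with both genes made up 46.9% at 4 months and 18.2% at 14 months.

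Cells with both genes also had more genes detected. At 4 months the median was 4319.5 genes in this class and 3351 in the class with neither, and at 14 months it was 3949 against 3165. The class with both held no cell under 2269 genes, whereas the class with neither reached down to 1021. The median mitochondrial share of TPM was 14.5% against 12.2% at 4 months and 19.9% against 16.7% at 14 months. The median measured gene was higher with both genes by 0.62 at 4 months and by 0.34 at 14 months on the log2(TPM+1) scale, so every difference below is given relative to that median gene of its age. A second value comes from cells matched on genes detected (9 pairs at 4 months, 11 at 14 months), in which the median gene differed by -0.00 and 0.02. In 4 pairs of 14-month cells the profiles correlated above 0.75. Those pairs involve 7 cells, 3 of which are among the 12 with both genes.

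**Figure D2:**
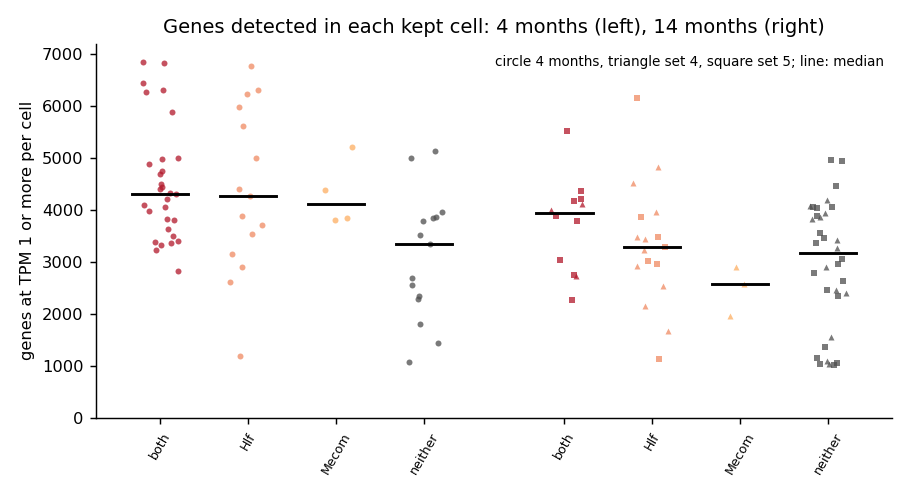
Genes at TPM 1 or more per cell (y axis) for the 4 classes at 4 and 14 months (x axis), 1 point per cell with a line at the median. Cells with both genes had medians of 4319.5 and 3949, and cells with neither 3351 and 3165, with overlapping ranges.

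For each of 9101 measured genes, the difference (both minus neither) of mean log2(TPM+1) was taken within each age and the 2 ages were averaged. A gene was called higher or lower when this average lay 1 or more from the median gene with the same sign at both ages. By this rule 932 genes were higher (10.2% of those measured) and 314 were lower (3.45%). In matched cells 753 were higher (8.22%) and 818 lower (8.93%), and with genes detected as a covariate 523 were higher and 454 lower, so the excess of higher genes was absent or small there. With cells of both ages pooled, 855 were higher and 222 lower. Over measured genes, 55.9% had the same sign at both ages, and the 2 ages' differences had a Pearson r of 0.15 across genes, which are not independent replicates.

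Gng5 lay furthest above the median gene among the genes open to naming, with an averaged difference of 3.52. Those genes had the same sign at both ages and were detected in 20% or more of the cells of either class at each age. Predicted genes, mitochondrial transcripts, pseudogenes and identifiers without a symbol were not among them. Gng5 encodes a G protein gamma subunit (chromosome 3, 146499807 to 146505572, build mm10). At 4 months its level was 0, 544 and 2373 TPM (lowest, median and highest of 30 cells) with both genes and 0, 0 and 1691 TPM (15 cells) with neither. At 14 months it was 244, 1435 and 4384 TPM (12 cells) against 0, 165 and 5524 TPM (34 cells). The classes overlapped at both ages, and in matched cells the difference was 1.24.

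Ctla2b, which encodes a relative of cathepsin propeptides, kept nearly its full difference in matched cells (3.39, and 3.16 matched). It lies on chromosome 13 (60895350 to 60897447). It was detected in 26 of 30 cells with both genes (86.7%, interval 69.3 to 96.2%) and in 5 of 15 with neither (33.3%, interval 11.8 to 61.6%) at 4 months. The 14-month counts were 12 of 12 (interval 73.5 to 100%) against 7 of 34 (20.6%, interval 8.70 to 37.9%). Its mean log2(TPM+1) was 5.15 ± 3.21 (SD, n = 30 cells) against 2.32 ± 3.48 (n = 15) at 4 months, and 6.16 ± 1.96 (n = 12) against 1.25 ± 2.51 (n = 34) at 14 months. The intervals of the shares did not overlap at either age, while the levels of single cells did. Ctla2b was named for its difference in these same cells, so the gap in shares is no separate support.

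Rgs1, a regulator of G protein signalling (3.11, and 2.87 matched), and Abcg1, a cholesterol exporter (2.84, and 2.87 matched), also stood as high in matched cells or nearly so. Rgs1 was detected in 30 of 30 cells with both genes at 4 months, with a median of 473 TPM, against 9 of 15 and 3.63 TPM with neither. At 14 months its medians were 936 and 143 TPM. Abcg1 medians were 270 against 0 TPM at 4 months and 157 against 64.8 TPM at 14 months. Adgrl4, an adhesion G protein-coupled receptor of endothelial and stem cells, averaged 2.76 (1.75 matched). It was detected in 12 of 12 cells with both genes at 14 months, with a lowest value of 62.7 TPM. In set 5 it was also found in 17 of 21 cells with neither gene. Tmem176b, a transmembrane protein gene, averaged 3.15 (1.74 matched) and was detected in 30 of 30 against 6 of 15 cells at 4 months but in 10 of 12 against 22 of 34 at 14 months. The interferon-inducible Ifitm1 was uneven between the ages (4.79 at 4 months, 0.71 at 14 months). The other genes of the 12 highest were Tubb4b (a beta tubulin, 2.77), Atp6v1f (a proton pump subunit, 2.74), Nxt1 (an mRNA export factor, 2.71), Rab11b (a recycling endosome GTPase, 2.66) and Gpbp1 (a promoter-binding factor, 2.65), and in matched cells they lay between 1.05 and 2.28. Ctla2b, the Ifitm and Ly6 genes, Tubb4b, Lyz2 and the class I genes have close relatives, so their values are uncertain where reads could be split between copies.

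**Figure D3:**
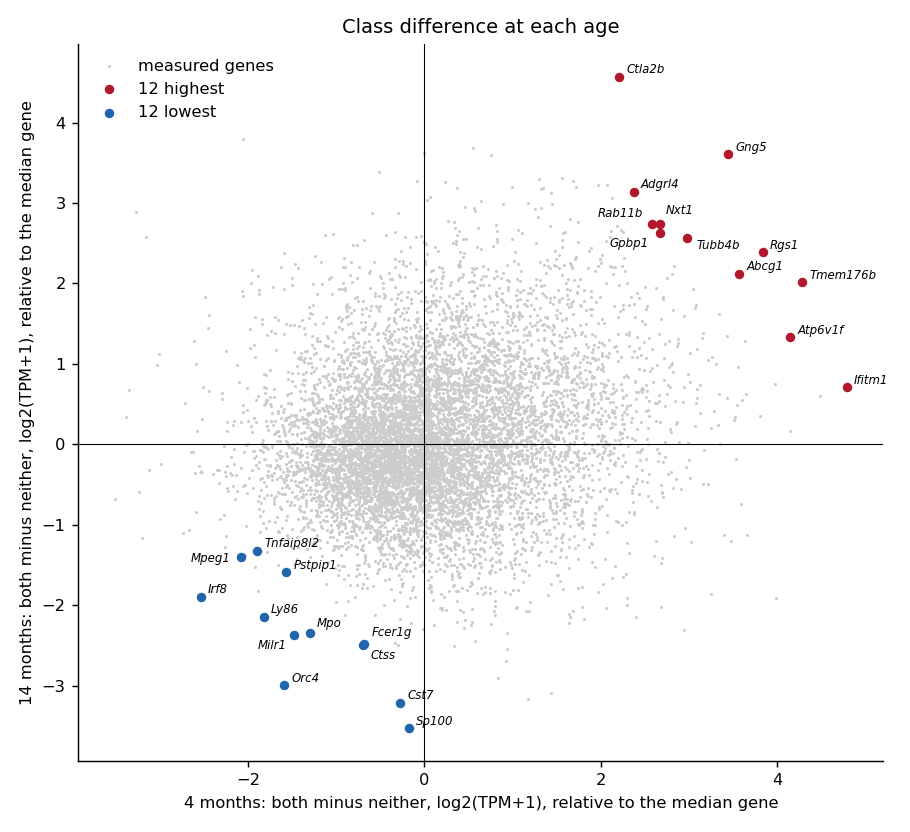
Difference between cells with both genes and cells with neither, relative to the median gene on the log2(TPM+1) scale, at 4 months (x axis) and 14 months (y axis), 1 point per measured gene, with the 12 highest and 12 lowest named genes coloured. Gng5 lies at 3.44 and 3.61, Ctla2b at 2.21 and 4.57, Irf8 at -2.54 and -1.90 and Mpo at -1.30 and -2.34, and the cloud as a whole shows little relation between the ages.

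In both stem cell lists some members were higher and 0 lower with both Hlf and Mecom, beside 10.2% higher and 3.45% lower over all measured genes. Of 40 stem cell regulators listed (Hlf and Mecom left out), 28 were measured, 6 were higher (21.4%) and 0 lower. Their median was 0.23 (0.50 matched), beside -0.01 over all measured genes. On the average of the ages, 21 of the 28 lay above the median gene (75.0%, beside 49.7% of all measured genes). Only 10 of the 28 lay above it at both ages, and 3 lay below it at both. Such a share was not particular to these regulators: it was 76.5% for glycolysis genes and 78.3% for nuclear respiratory chain genes, and 27.8% for granulocyte-monocyte genes. Of 46 listed surface and signalling genes of stem cells, 23 were measured, 10 were higher (43.5%) and 0 lower, with a median of 0.84 (0.61 matched). These are descriptions of lists chosen with earlier results of these cells known.

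The regulator furthest up was Msi2, an RNA-binding protein that sustains stem cell self-renewal (chromosome 11, 88339382 to 88718513), at 2.45 (2.201 matched). It was detected in 29 of 30 cells with both genes (96.7%, interval 82.8 to 99.9%) and 6 of 15 with neither (40.0%, interval 16.3 to 67.7%) at 4 months. Among 14-month cells it was found in 12 of 12 (interval 73.5 to 100%) and 15 of 34 (44.1%, interval 27.2 to 62.1%). Its lowest, median and highest levels were 0, 43.9 and 191 TPM against 0, 0 and 202 TPM at 4 months, and 1.06, 38.2 and 767 TPM against 0, 0.26 and 583 TPM at 14 months. Nearly every cell with both genes thus had Msi2, while the highest levels were similar in the 2 classes.

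The homeobox factor gene Hhex followed at 2.00 (1.21 matched), detected in 22 of 30 against 3 of 15 cells and in 8 of 12 against 17 of 34. Egr1, an immediate early factor linked to stem cell quiescence, averaged 1.55, with 0.34 at 4 months and 2.76 at 14 months. Meis1, the partner of Hox proteins, averaged 1.45 (2.10 matched), with 3.92 when the 14-month cells were those of set 4 and 0.39 when they were those of set 5. Both settings used the same 4-month cells. Within set 5 alone, Meis1 was lower with both genes, at a mean log2(TPM+1) of 4.605 (9 cells) against 5.232 (21 cells) with neither. Its medians there were 30.2 against 138 TPM. Lmo2, a bridging factor of stem cell complexes, averaged 1.23 but 0.38 in matched cells and 0.21 with the 14-month cells of set 4. Lmo2 was detected in all 42 cells of the class and in 37 of 49 cells with neither gene. Hoxa9 lay at the threshold (1.01, and 0.96 matched).

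Several regulators were too sparse to count as measured or stayed under the threshold. Gata2 was detected in 15 of 42 cells with both genes and 4 of 49 with neither, an averaged difference of 0.73. Procr was detected in 3 of 42 and 0 of 49 cells (a count of 0 among 49 allows a share of up to 6.12%), Prdm16 in 5 and 3, Ctnnal1 in 6 and 0, Fgd5 in 1 and 2, and Esam in 1 and 0. Slamf1, which encodes the CD150 that the sort excludes, was detected in no cell of either class. The markers of long-term stem cells named here, other than Meis1 and Gata2, were therefore at or near 0, and the cells are called by their rule.

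Among the surface and signalling genes, Ly6a, which encodes the Sca-1 of the sort gate, averaged 2.46 (2.07 matched). It was detected in 17 of 30 cells with both genes (56.7%, interval 37.4 to 74.5%) against 1 of 15 (6.67%, interval 0.17 to 31.9%) at 4 months, and in 7 of 12 against 11 of 34 at 14 months. Angpt1, the ligand of the Tie2 receptor, averaged 2.28 (1.89 matched), with medians of 78.4 against 2.34 TPM at 4 months and 47.0 against 0 TPM at 14 months. Adgrg1, the adhesion receptor Gpr56, averaged 1.88 (1.45 matched). Tgfbr2, a receptor of TGF-beta, averaged 1.33 (1.38 matched). Ifitm3 (2.36), Txnip (1.48) and Ly6e (1.33) were lower in matched cells, at 0.96, 0.57 and -0.49, the last with its sign turned.

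**Figure D4:**
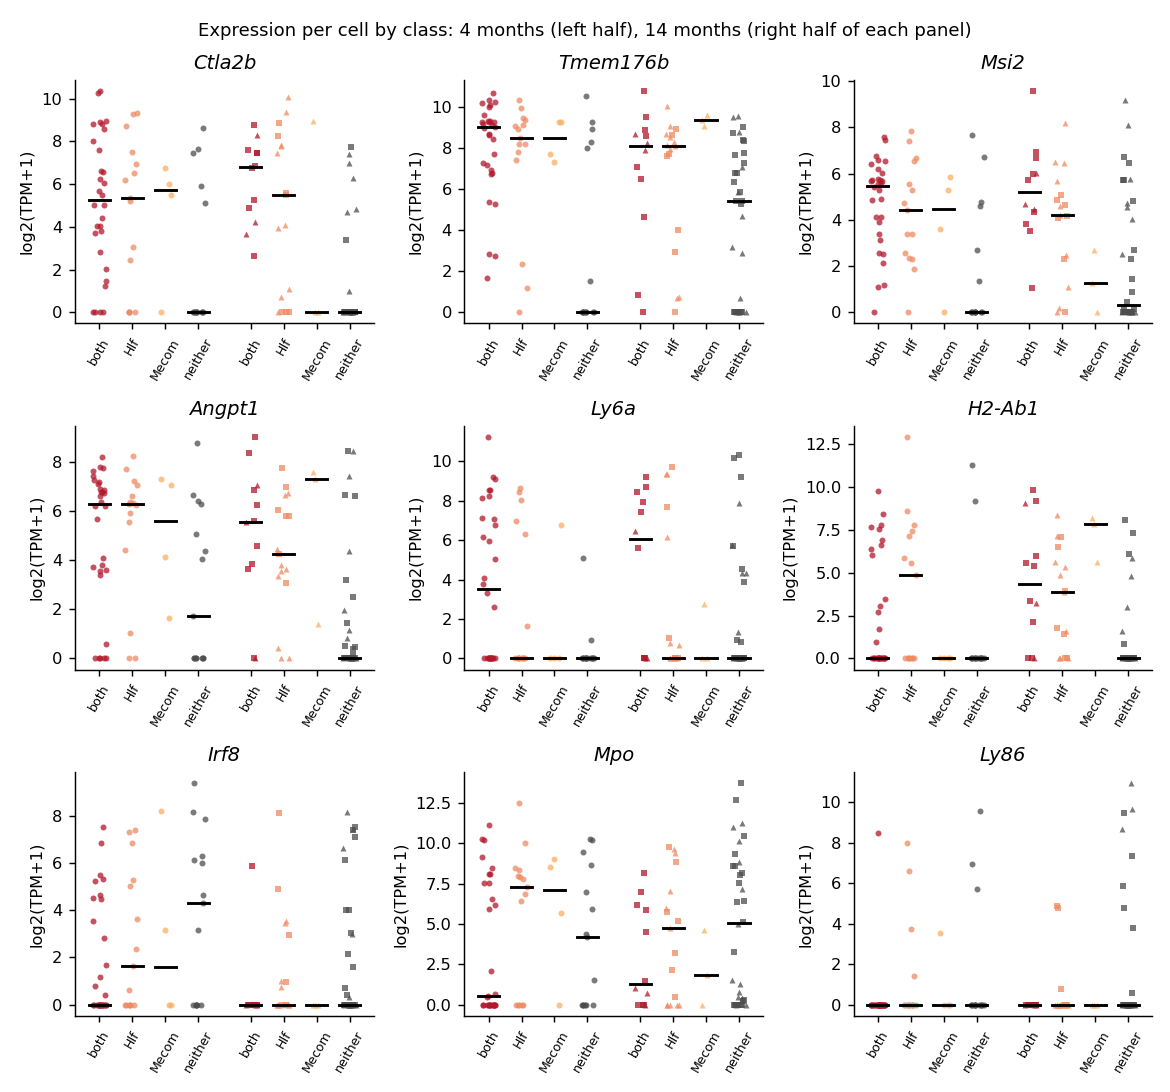
Levels of selected genes in single cells (y axis, log2(TPM+1)) for the 4 classes at 4 and 14 months (x axis), 1 point per cell with a line at the median (circles 4 months, triangles set 4, squares set 5). Msi2 and Ctla2b are present in nearly every cell with both genes, and Irf8 in 12 of 30 and 1 of 12 of them, and for each gene the classes overlap.

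The genes behind the sort gate were transcribed in both classes. Flt3 was detected in 30 of 30 and 12 of 12 cells with both genes and in 15 of 15 and 31 of 34 with neither, with medians of 120 against 46.1 TPM at 4 months and 144 against 101 TPM at 14 months. Its averaged difference of 0.60 (0.25 matched) stayed under the threshold. Kit, the stem cell factor receptor gene, averaged 1.58 (1.00 matched) and Cd34 averaged 1.56 (0.53 matched). Kit was detected in 23 of 30 against 5 of 15 cells at 4 months and in 8 of 12 against 15 of 34 at 14 months.

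Early lymphoid genes had no common direction between the classes. Of 31 listed, 22 were measured, and 3 were higher (13.6%) and 3 lower (13.6%). Over all measured genes 10.2% were higher and 3.45% lower. The list's median was 0.10 (-0.18 matched). Dntt, the terminal transferase gene of early lymphoid priming, was detected in 22 of 30 cells with both genes and 11 of 15 with neither at 4 months, and in 11 of 12 and 30 of 34 at 14 months. Its medians were 157 against 128 TPM and 474 against 322 TPM, an averaged difference of 0.25. It was -0.58 in matched cells, so it has no stable direction. Il7r, the interleukin 7 receptor gene, was lower (-1.48, and -1.90 matched), detected in 1 of 30 against 2 of 15 cells and in 1 of 12 against 9 of 34. Blnk, a B cell signalling adaptor, was also lower (-1.19). Cd27, a costimulatory receptor that multipotent progenitors carry too, was higher (2.46, and 1.11 matched), found in 39 of 42 cells against 25 of 49. Lymphoid and myeloid genes of a fixed panel were detected together in 29 of 42 cells with both genes (69.0%, interval 52.9 to 82.4%) and 35 of 49 with neither (71.4%, interval 56.7 to 83.4%).

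Granulocyte-monocyte genes lay mostly below the median gene. Of 26 listed, 18 were measured, 6 were lower (33.3%) and 1 higher (5.56%), beside 3.45% lower and 10.2% higher over all measured genes. The list's median was -0.61 (-0.29 at 4 months, -1.23 at 14 months, -0.55 matched). The 6 lower genes were Irf8, Mpo, Cst7, Spi1, Cebpa and Csf1r. In cells with under 25% of the G2/M list detected, which leaves 11 and 9 cells at 4 months and 4 and 12 at 14 months, the list's median was -0.04, and among genes in 30% or more of cells it was -0.02.

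Irf8, the transcription factor of monocyte and dendritic cell fate (chromosome 8, 120736358 to 120756694), lay at -2.22 (-3.06 matched). It was detected in 12 of 30 cells with both genes (40.0%, interval 22.7 to 59.4%) and 9 of 15 with neither (60.0%, interval 32.3 to 83.7%) at 4 months. At 14 months it was in 1 of 12 (8.33%, interval 0.21 to 38.5%) and 13 of 34 (38.2%, interval 22.2 to 56.4%). Mean log2(TPM+1) was 1.81 ± 2.47 (SD, n = 30 cells) against 3.73 ± 3.49 (n = 15) at 4 months and 0.49 ± 1.70 (n = 12) against 2.04 ± 2.91 (n = 34) at 14 months. The share of cells with Irf8 was lower with both genes at each age, with intervals that overlapped.

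Mpo, the myeloperoxidase of azurophil granules, lay at -1.82 (-4.19 matched). Its median was 0.43 TPM against 17.1 at 4 months and 1.43 TPM against 32.5 at 14 months, and its highest value was 2258 TPM against 1215 and 281 TPM against 13569. Mpo was detected in 13 of 30 cells with both genes (43.3%) against 9 of 15 (60.0%) at 4 months, and in 7 of 12 (58.3%) against 21 of 34 (61.8%) at 14 months, with overlapping intervals. Ly86, a partner of the RP105 receptor on B and myeloid cells, lay at -1.98 (-1.88 matched) and was detected in 1 of 42 cells with both genes and 11 of 49 with neither. Mpeg1, the pore-forming protein perforin-2 of phagocytes, lay at -1.74 (-2.03 matched) and was detected in 2 of 30 against 5 of 15 cells and in 1 of 12 against 10 of 34. Lyz2, the lysozyme of myeloid cells, went the other way at 1.84 (1.11 matched).

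The lowest gene of all named was Orc4, a subunit of the origin recognition complex, at -2.29 (-1.82 matched). It was detected in 8 of 30 against 6 of 15 cells at 4 months and in 2 of 12 against 17 of 34 at 14 months. The rest of the 12 lowest were Milr1 (an inhibitory immunoglobulin-like receptor of mast and other myeloid cells, -1.92), Sp100 (a nuclear body protein, -1.85), Cst7 (cystatin F, -1.74), Tnfaip8l2 (a regulator of immune responses, -1.61), Ctss (the protease cathepsin S, -1.59), Fcer1g (the Fc receptor gamma chain, -1.58) and Pstpip1 (a cytoskeletal adaptor, -1.58). Sp100 and Cst7 rest on the 14-month cells, with -0.17 and -0.27 at 4 months and -3.53 and -3.21 at 14 months.

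The counts of the following lists stand beside 10.2% higher and 3.45% lower over all measured genes. Immediate early genes had 6 of 19 measured members higher (31.6%) and 0 lower (median 0.47, 0.24 matched), among them Zfp36, an mRNA decay factor (1.99), and Dusp1, a MAP kinase phosphatase (1.79). Their median was 0.54 at 4 months and -0.00 at 14 months. Of 15 measured MHC and interferon genes, 4 were higher (26.7%) and 0 lower (median 0.34, 0.26 matched). H2-Ab1, a class II beta chain, averaged 1.84 (2.17 matched). It was detected in 13 of 30 against 2 of 15 cells and in 9 of 12 against 7 of 34. The other class II genes of the list did not pass the threshold, with H2-Aa at 0.47, Cd74 at -0.015 and H2-Eb1 at -0.078. H2-K1, a class I heavy chain, was uneven between the ages (3.25 and 0.21). Of 12 measured homing and adhesion genes, 3 were higher (the integrins Itgb1 and Itga6, and Cd47) and 3 lower, with the chemokine receptor gene Cxcr4 at -1.13 and the integrin gene Itgal at -1.37 (-0.71 matched). Of 7 measured megakaryocyte and erythroid genes, 3 were higher and 0 lower (median 0.41, 0.49 matched). This list's median came mostly from the 4-month cells (1.25), with 0.04 in those of 14 months. Car2, carbonic anhydrase 2, averaged 2.54 (2.21 matched, 4.49 at 4 months and 0.60 at 14 months). Muc13, a mucin, averaged 1.84 (1.15 matched). Vwf, Tfrc and Slc14a1 of the same list lay below the median gene, at -0.799, -0.715 and -0.101.

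Several cell cycle and metabolic lists had lower medians in cells matched on genes detected, and the cause was not tested. Of 53 measured G2/M genes, 6 were higher (11.3%, near the 10.2% of all measured genes) and 0 lower (median 0.28), but the median was -0.49 in matched cells and -0.15 with genes detected as a covariate. Of 44 measured S phase genes, 9 were higher (20.5%) and 1 lower (median 0.27, -0.10 matched). The replication helicase gene Mcm4 averaged 2.10 (2.07 matched), whereas Cdk1, the mitotic kinase, averaged 1.73 and 0.25 in matched cells. Cells with 25% or more of the G2/M list detected made up 19 of 30 with both genes and 6 of 15 with neither at 4 months (63.3% and 40.0%), and 8 of 12 and 22 of 34 at 14 months (66.7% and 64.7%). Of 13 measured CDK inhibitor and quiescence genes, 0 passed the threshold in either direction (median 0.24). Glycolysis genes had a median of 0.70 (0.83 at 4 months and 0.08 at 14 months), which was 0.16 in matched cells. Nuclear genes of the respiratory chain had 8 of 23 higher (34.8%) and a median of 0.97, which was -0.93 in matched cells. This median came from the 4-month cells (1.44), and at 14 months it was -0.07. The averaged medians of the G2/M, S phase and respiratory chain lists were thus below 0 in matched cells.

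**Figure D5:**
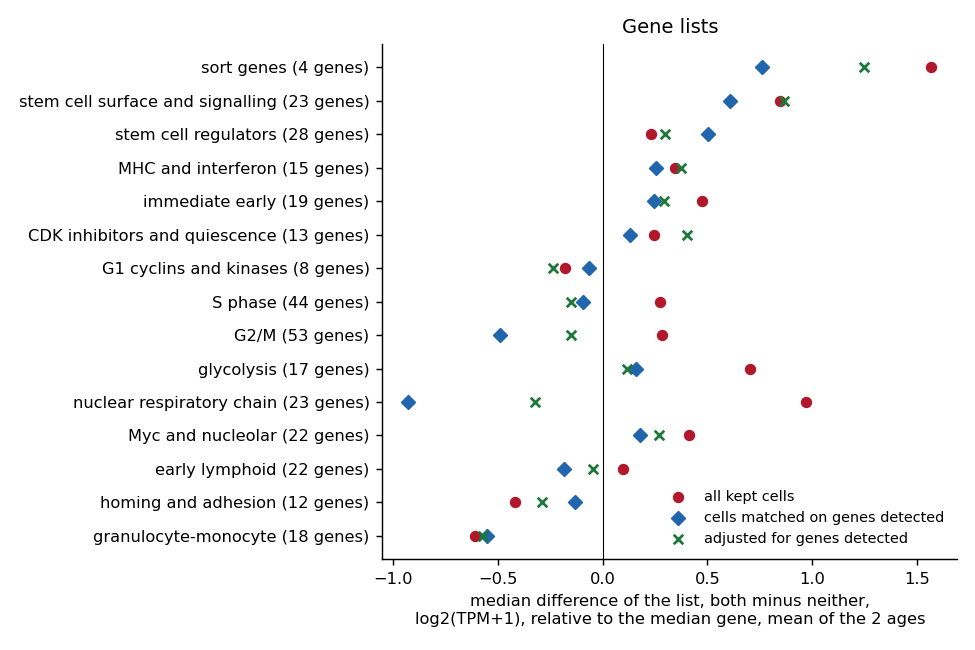
Median difference of the measured members of each gene list, cells with both genes minus cells with neither, relative to the median gene on the log2(TPM+1) scale (x axis), for all kept cells, for cells matched on genes detected and with genes detected as a covariate, with 1 row per list (y axis). The 2 stem cell lists lie above 0 and the granulocyte-monocyte list below 0 under all 3, whereas the G2/M and respiratory chain lists change side in matched cells.

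Cells with only Hlf were close to the cells with both in stem cell regulators. At 4 months the mean log2(TPM+1) over the 28 measured regulators had a median of 2.89 over the 30 cells with both genes (1.76 to 4.30). It was 2.94 over 15 with only Hlf (2.05 to 4.48), 2.99 over 4 with only Mecom and 2.24 over 15 with neither (0.36 to 3.25). At 14 months it was 2.42 over 12 cells with both (1.74 to 3.66) and 2.23 over 17 with only Hlf (0.35 to 3.24). It was 1.78 over 3 with only Mecom and 1.64 over 34 with neither (0.53 to 3.16). Cells with only Hlf had a median of 4269 genes detected at 4 months, near that of cells with both, and 3284 at 14 months. Msi2 was detected in 14 of 15 and 14 of 17 cells with only Hlf, and Angpt1 in 13 of 15 and 14 of 17. For granulocyte-monocyte genes the 4-month median was 2.39 with both, 2.84 with only Hlf and 1.88 with neither. At 14 months it was 1.33, 1.64 and 2.05. These levels are not relative to the median gene, their ranges overlapped, and no difference between these classes was tested.

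Within the class with both genes, the 12 cells of 14 months were set against the 30 of 4 months, again relative to the median measured gene, which was lower by 0.29 at 14 months (a difference of -0.29). Stem cell regulators had a median of -0.06 (14 of 28 below the median gene) and the surface genes -0.06. In the class with neither gene the regulators had a median of -0.37 (20 of 28 below). Immediate early genes had a median of -1.24 with both genes (16 of 19 below) and -1.10 with neither (15 of 19 below). G2/M genes had a median of 0.97 with both (8 of 53 below) and 0.62 with neither (9 of 53 below). Early lymphoid and granulocyte-monocyte genes had medians of -0.41 and -0.68 with both genes and of 0.09 and -0.05 with neither. The difference between the classes in these age differences was not tested, and the capture of the cells cannot be told apart from age.

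Some markers of mature and other cells were absent from the class and others were not. Cpa3, Ms4a2 and Fcer1a of mast cells and basophils, Pax5 of B cells, Cd3e and Cd3g of T cells, Ncr1 of NK cells, Gata1, Epor and Car1 of the erythroid lineage, Gp1bb of megakaryocytes, Cdh5 of endothelium and Col1a1 of stroma were under 1 TPM in all 42 cells. These genes were under 1 TPM in all 130 kept cells, so their absence is not particular to the class. In contrast, Vwf of megakaryocytes was detected in 31 of the 42 cells, Nkg7 of NK cells in 29, Lepr of stroma in 15 and Cd79b of B cells in 14. At least 1 of 5 megakaryocyte markers was found in 23 of 30 cells with both genes against 13 of 15 at 4 months and in 10 of 12 against 14 of 34 at 14 months. For NK markers these counts were 22 of 30 against 4 of 15 and 7 of 12 against 26 of 34. B cell markers were found in 12 of 30 against 6 of 15 cells and in 3 of 12 against 7 of 34, with summed levels of up to 1290 TPM with both genes and 971 TPM with neither. Stromal markers were found in 15 of 30 against 7 of 15 cells and in 1 of 12 against 6 of 34. At least 1 of 3 endothelial markers was detected in 12 of 30 cells with both genes against 2 of 15 at 4 months, and in 1 of 12 against 2 of 34 at 14 months. Their summed level reached 482 TPM with both genes and 20.2 TPM with neither at 4 months, with medians of 0 in each class. At least 1 of 4 neutrophil markers was detected in 4 of 30 against 1 of 15 cells and in 4 of 12 against 12 of 34, with summed levels of up to 13815 TPM in a 14-month cell with neither gene. At least 1 of 3 monocyte markers was detected in 9 of 30 against 5 of 15 cells and in 2 of 12 against 10 of 34. Their part in the granulocyte-monocyte difference was not tested.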

How the data were processed

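Single LMPPs of 4 and 14 months were measured by RNA-seq. RSEM 1.2.12, Bowtie2 2.2.0 and build mm10 appear in the submitters' processing notes. The authors deposited TPM values for 38924 genes in 168 columns, 1 per cell. Each column sums to 1000000, so depth is unknown and genes detected stand in for it, which limits the precision for low genes. The table has 84 columns of each age and the labels list 84 and 83 cells, and which 14-month column lacks a label is not known. No column was left unused, mitochondrial transcripts set no filter, and no doublet caller was run.

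A gene was detected at TPM 1 or more, and measured when the mean of its 4 class-by-age shares of cells was at least 10%. Differences are on log2(TPM+1), with a pseudocount of 1, which understates the change of low genes. Shares have exact Clopper-Pearson 95% intervals, and the limit for a count of 0 is 3 cells of the total. Both cover counting error only. With 1 sample per age no test was made, since 2 age pairs cannot go below an exact p of 0.5. Matched pairs differ by at most 500 genes detected. Named genes comprise the 12 highest and 12 lowest with the same sign at both ages, present in 20% or more of the cells in either class, past-threshold members of both stem cell lists, the 2 highest and lowest members of other lists, sort genes and a small panel. Some genes that this rule takes are left out of the text. Predicted genes, mitochondrial transcripts and pseudogenes were left out. Other members of the lists were named after their values were seen. The class, the lists and the rules were chosen with earlier results of these data known. In all, 16 alternatives were run, 3 of them added after seeing the data. Symbols were found for 37607 identifiers. Coordinates are those of GENCODE for mm10. Python 3.11.15, numpy 2.4.6, pandas 2.3.3 and scipy 1.17.1 were used, and the scripts were tested on simulated data.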

Additional observations from a re-analysis of the deposited data

Results flagged for a closer look

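For 12 of the 324 measured genes on any list, the class difference (both minus neither, relative to the median gene on the log2(TPM+1) scale) was 1 or more in size at each age but with opposite signs. The rule for named genes takes 3 of them. Nkg7, a granule protein gene of NK and early myeloid cells, lay at 3.98 at 4 months and at -1.90 at 14 months. Cdkn1a, which encodes the CDK inhibitor p21, lay at 1.02 and -1.66. Sdha, a subunit of respiratory complex II, lay at 1.44 and -3.09. Among the others, Prtn3, the granule protease proteinase 3, lay at 2.69 and -2.03, and Mef2c, a transcription factor of lymphoid progenitors, at 1.65 and -2.15. The difference between the ages was not tested, since each age is 1 sample.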

How the results depend on the processing

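No paired analysis was possible because the columns carry no replicate number of the labels and the results come from no test. Of the 65 named genes called higher or lower, 63 of 65 kept their sign in matched cells (47 past 1) and 65 of 65 with genes detected as a covariate (49 past 1). Past 1 with the same sign were 57 of 64 with set 4 and 62 of 65 with set 5, each averaged with the same 4-month cells. The genes counted here had passed the rule in these same cells, which every setting reuses. Agreement was therefore partly fixed in advance and is no independent support. Genes called higher numbered 319 with a pseudocount of 10, 1927 with no filter on low values, 432 among genes in 30% or more of cells, 1709 at 4 months only and 523 with the covariate, against 932. Genes called lower numbered 22, 39, 354, 1061 and 454 under the same settings. They numbered 514 for both genes at TPM 10 or more against both at 0, 818 in matched cells, 835 at 14 months only, 662 with set 4 only and 673 in cells under 25% of the G2/M list, against 314. A single age calls without the same-sign rule. The 4-month share of the class was 17.2% at TPM 10 or more, against 46.9%, and the 14-month share 10.6%, against 18.2%. The stem cell regulator median (0.23) was 0.40 at 4 months only, 0.50 at 14 months only, 0.50 matched, 0.47 at TPM 10, 0.13 with a pseudocount of 10, 0.58 unfiltered, 0.073 among genes in 30% of cells and 0.31 without the 7 cells of highly alike pairs. The early lymphoid median (0.10) changed side and has no stable direction: it was -0.10 at 14 months only, 0.72 with set 4, -0.0067 with set 5, -0.18 matched, -0.044 with the covariate, -0.0078 after quantile normalization, 0.36 under 25% of the G2/M list, -0.035 at TPM 10, 0.16 unfiltered, -0.10 among genes in 30% of cells, 0.0005 in cells with 2000 or more genes and 0.22 without alike cells. The G2/M median (0.28) was -0.49 matched, -0.15 with the covariate and 0.68 unfiltered. In single genes the sign turned for Pkm (-0.54) and Ly6e (-0.49) in matched cells and Hoxa9 (-0.38) in cells under 25% of the G2/M list. The causes were not tested. The covariate, the G2/M restriction and the removal of alike cells were chosen after seeing the data. Precision is limited by the 12 cells of 14 months with both genes, of which 3 are from set 4.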

Other observations

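Some list members fell below the measured threshold but were detected in cells with both Hlf and Mecom and in no cell with neither. Nkx2-3, a homeobox gene, was detected in 10 of 42 cells with both genes, in 0 of 49 with neither and in 14 of all kept cells. Cdkn1c, which encodes the CDK inhibitor p57 of quiescent stem cells, was detected in 3 of 42 and 0 of 49 cells. Members of other lists had the same pattern, such as Apoe (7 of 42 and 0 of 49) and Pf4 (3 and 0). The reverse also occurred, as for Cebpd (0 of 42 and 6 of 49) and Fcgr3 (0 and 3). The share of all genes with either pattern is not given here, so these counts single out no kind of gene. Nkx2-3 and Cdkn1c were picked after their values were seen, and cells with both genes had more genes detected.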
